A study of Mus musculus with 6 samples.

Results

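Müller glia genes were followed in newborn mouse retinas with and without a conditional deletion of Lhx2. The 31 genes were taken from a given list, drawn up with earlier results of these data known, and all 31 were found by symbol among the 39179 gene rows of the count files (Cyr61 stands as Ccn1 in the annotation). They were divided by general knowledge of where they are made, not by these data. By it 10 are shared with retinal progenitors, 10 are best known from mature Müller glia and 11 are made by many cell types. Abca8a, a lipid transporter gene of the mature class, had 10 reads over all libraries and was not tested, so 30 members were tested among 16691 genes.

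Müller glia are the main glial cells of the retina and the last cell type that its progenitors produce. They span the tissue, take up and convert glutamate, buffer potassium and pH, and handle retinoids for the photoreceptors. Young Müller glia and late progenitors share many transcripts, so that a gene such as Vim or Dkk3 is read in both, while genes such as Rlbp1, Kcnj10 and Car14 are best known from differentiated glia. Lhx2 encodes a LIM homeodomain transcription factor of the eye field, of retinal progenitors and of Müller glia.

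Bulk RNA of whole retinas was sequenced from mice of a mixed, mainly CD-1, background at postnatal day 0.5. The 3 controls (control 2, 3 and 4, by their label numbers) carried Lhx2 lox/lox, and the 3 conditional knockouts (cKO 1, 2 and 3) carried Lhx2 lox/lox with a Pdgfrα-Cre transgene, so both groups share the floxed alleles and only the cKO group has Cre. Cre is a recombinase that removes floxed sequence, driven here by regulatory sequence of Pdgfra, a growth factor receptor gene; which cells it reached was not measured. In bulk tissue, fewer cells of a type and less RNA per cell cannot be told apart. Nothing in the labels beyond the number of mice says how the samples were reared or pooled, and p-values measure the spread between these libraries.

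The libraries held 31483170 to 66947478 reads counted on genes. They formed 2 library sets that cross genotype and that no label names. In set A (control 2 with cKO 1 and 2) over 2.9% of all counts were ambiguous between genes, and in set B (controls 3 and 4 with cKO 3) fewer were. Controls 2 and 4 were male by their Y-linked Ddx3y, and the other 4 libraries were female. Library set was therefore a term of the fits reported here, and values from genotype alone are given beside the counts. Control 3 and cKO 3 are the only pair of unlike genotype that match in both set and sex. Values per library are given throughout in the order of controls 2, 3 and 4 and of cKO 1, 2 and 3, as counts scaled to library size (CPM). Lhx2 itself stood at 398, 266 and 258 CPM among the controls and 252, 287 and 224 CPM among the cKO libraries. It fell by 0.40 on the log2 scale (adjusted p = 0.0338, SE 0.10, edgeR's quasi-likelihood test), and the genotype ranges overlapped; the call was lost with genotype alone, with sex as a further term and without any 1 of control 2, control 3, cKO 2 or cKO 3.

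Among the 30 tested members 6 rose under the deletion, 4 fell and 20 did not pass. Those that rose were Clu, Mt1, Sparc, Vim, Timp3 and Ptn, and those that fell were Spon1, Col9a1, Car2 and Glul. The rises make up 20.0% of the tested members, against 6.36% of all genes tested, and the falls 13.3%, against 5.63%. The members' median log2 fold change (cKO minus control) was 0.06, beside 0.00 over all genes tested, and 17 members were higher and 13 lower. In every one of the 10 called members the 3 cKO libraries lay on one side of the 3 controls. Including members that did not pass, 8 of 30 had all cKO libraries above all controls (8.38% of all genes tested) and 5 had them below (5.54%). With genotype alone, 0 of the 30 members passed (0.216% of all genes rose and 0% fell), although 9 had an unadjusted p under 0.05 (7.74% of all genes). The values of the 10 called members then ran from -1.56 (Spon1) to 2.01 (Clu), each with the sign it had with library set, and their adjusted p from 0.0836 (Sparc) to 0.656 (Ptn). With sex as a further term Sparc, Vim, Mt1 and Mt2 rose and Spon1 fell, and the other 6 called members did not pass; over all genes 1.04% rose and 0.377% fell in that fit.

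**Figure D1:**
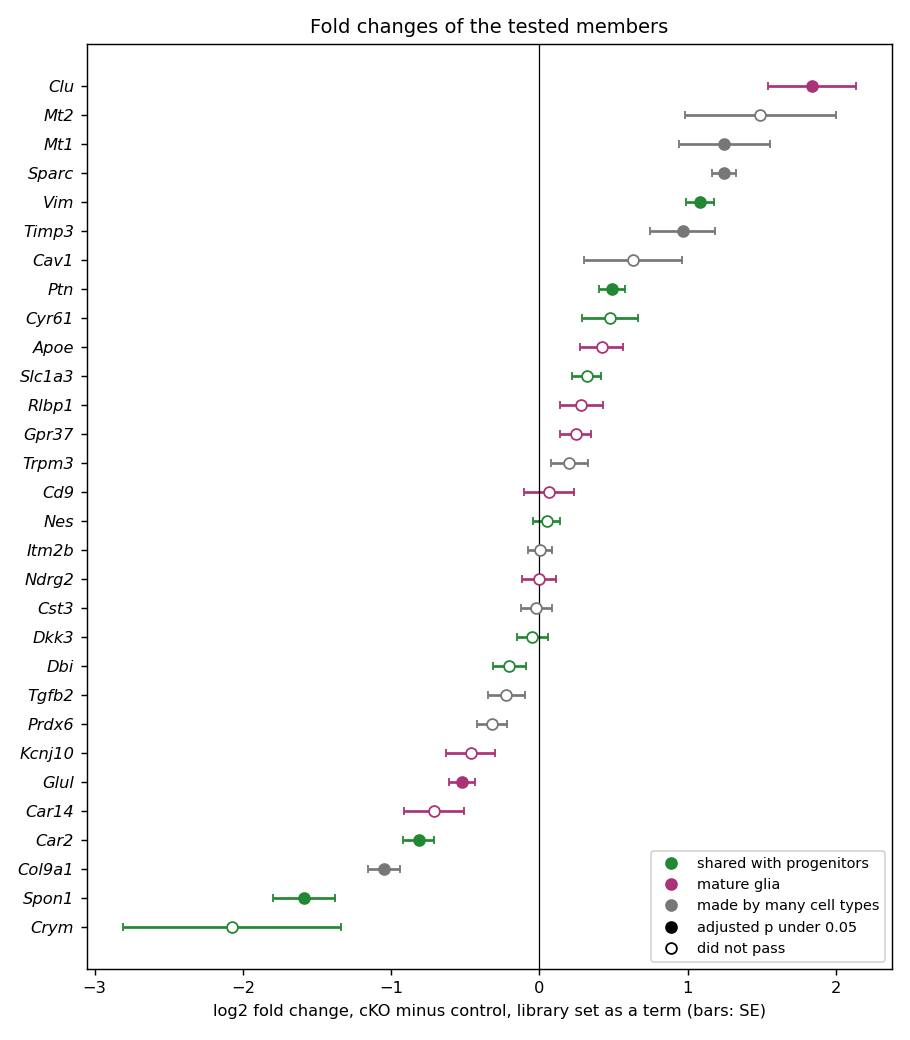
Log2 fold change of each tested member (x axis, cKO minus control with library set as a term; bars are 1 SE), coloured by class and filled where adjusted p was under 0.05. The filled points run from Spon1 at -1.59 to Clu at 1.84, and each class has points on both sides of 0.

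Genes shared with progenitors and genes of mature glia each had members on both sides of 0. Over all genes tested 6.36% rose and 5.63% fell, with 8322 higher and 8369 lower in the cKO. Of the 10 shared genes 5 were higher and 5 lower in the cKO, 2 rose (Vim and Ptn), 2 fell (Spon1 and Car2), and the median was 0.00. Of the 9 tested mature glia genes 5 were higher and 4 lower, 1 rose (Clu), 1 fell (Glul), and the median was 0.07. Of the 11 genes made by many cell types 7 were higher and 4 lower, 3 rose (Sparc, Mt1 and Timp3), 1 fell (Col9a1), and the median was 0.20. Summed over the class, the mature glia genes stood at 1160 to 1200 CPM in the controls and 960 to 1197 CPM in the cKO libraries, the shared genes at 2245 to 3117 and at 2551 to 3269 CPM, and the genes made by many cell types at 1075 to 1258 and at 1305 to 1358 CPM. Over the 6 libraries the first and second sums overlapped between genotypes and the third did not. Within each set the mature glia sum was lower in every cKO library than in every control, and the other 2 sums were higher. In set A each of these gaps was smaller than that of a single called member of the class. There Glul was at 705 CPM in control 2 and 494 and 540 CPM in cKO 1 and 2. Vim was at 422 against 853 and 774 CPM, and Sparc at 183 against 420 and 404 CPM, in the same libraries. In set B (controls 3 and 4, then cKO 3) the shared sums were 2245, 2264 and 2551 CPM, beside Vim at 206, 210 and 485 CPM. Genes made by many cell types summed to 1124, 1075 and 1355 CPM, beside Sparc at 147, 154 and 377 CPM. There these 2 gaps exceeded those of Vim and Sparc. Mature glia sums were 1160, 1160 and 960 CPM, beside Glul at 688, 635 and 438 CPM. As 1 member can carry much of a sum, the sums do not show whether a class moved as a whole. The nearest libraries of set A were close: control 2 and cKO 1 had shared sums of 3117 and 3122 CPM, and control 2 and cKO 2 had mature glia sums of 1200 and 1197 CPM. These sums and the difference between classes were not tested. The medians of the classes moved with the libraries: without control 2, from set B alone, the mature glia median was -0.12 and that of genes made by many cell types 0.42, and without cKO 3, from set A alone, they were 0.28 and 0.01.

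In these newborn retinas the members were read at very different levels, and which cells gave the reads was not measured. Per kilobase of exon, Dkk3, a secreted protein related to the Dickkopf Wnt inhibitors, was the most abundant member in controls at 306 CPM per kb, followed by Glul at 203, Dbi at 128 and Cst3 at 103. Rlbp1 stood at 36.1 and Kcnj10 at 7.97 CPM per kb. Clu, Car14, Cyr61, Cav1 and Timp3 were each under 3 CPM per kb in controls, and Abca8a was at 0.003. In all, 6 members, Abca8a among them, had a mean below 10 CPM in both groups.

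Of the 5 genes of transmitter, ion and acid-base handling, Glul and Car2 fell (5.63% of all genes tested fell) and the other 3 did not pass. Glul encodes glutamine synthetase, which converts the glutamate taken up by Müller glia to glutamine. It was at 705, 688 and 635 CPM in the controls and 494, 540 and 438 CPM in the cKO libraries. All cKO values lay below all controls, and Glul fell by 0.52 on the log2 scale (adjusted p = 0.00828, SE 0.09). Its adjusted p was 0.0507 without control 2 (-0.60), 0.183 without cKO 3 (-0.42) and 0.0869 when sex was added (-0.63).

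Car2, a cytosolic carbonic anhydrase that interconverts carbon dioxide and bicarbonate, gave 164, 123 and 113 CPM in controls 2, 3 and 4. In cKO 1, 2 and 3 it gave 83.0, 105 and 66.2 CPM. The groups did not overlap, with cKO 2 and control 4 nearest to each other, and Car2 fell by 0.82 on the log2 scale (adjusted p = 0.00273, SE 0.11), the value within set A being -0.80 and within set B -0.83. With sex as a further term its value was -0.90 (adjusted p = 0.0589). Car14, the membrane-bound carbonic anhydrase, was scarcer, with 8.04, 4.19 and 4.17 CPM in the controls and 5.57, 6.23 and 2.01 CPM in the cKO libraries. It was lower than control within each set, with a value of -0.71 (adjusted p = 0.0537, SE 0.20), and passed with RLE scaling (-0.75, adjusted p = 0.0463) and in DESeq2 (adjusted p = 0.0117); 17.5% of its exon length overlaps Aph1a on the other strand, and whether the counting used strand is not stated by the labels.

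The other members of this group did not pass. Kcnj10, the inward rectifier potassium channel Kir4.1, was at 37.4, 38.1 and 53.8 CPM in the controls and 20.7, 28.1 and 37.0 CPM in the cKO libraries. All cKO values were below all controls, the nearest pair being cKO 3 and control 2, and the value was -0.46 (adjusted p = 0.111, SE 0.17). Slc1a3, the glutamate transporter GLAST, was the only gene of the group that was higher in the cKO within both sets, at 254 against 316 and 368 CPM in set A and at 513 and 465 against 566 CPM in set B (0.32, adjusted p = 0.0732, SE 0.10). Rlbp1, which encodes the retinoid carrier CRALBP, was at 122, 98.2 and 99.5 CPM in the controls and 191, 188 and 93.9 CPM in the cKO libraries. Its value was 0.63 within set A and -0.07 within set B (0.28 over both, SE 0.15, adjusted p = 0.259). Without 1 library, Slc1a3 passed in the absence of cKO 1 (0.35, adjusted p = 0.0264) and Rlbp1 in that of cKO 3 (0.66, adjusted p = 0.0286).

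**Figure D2:**
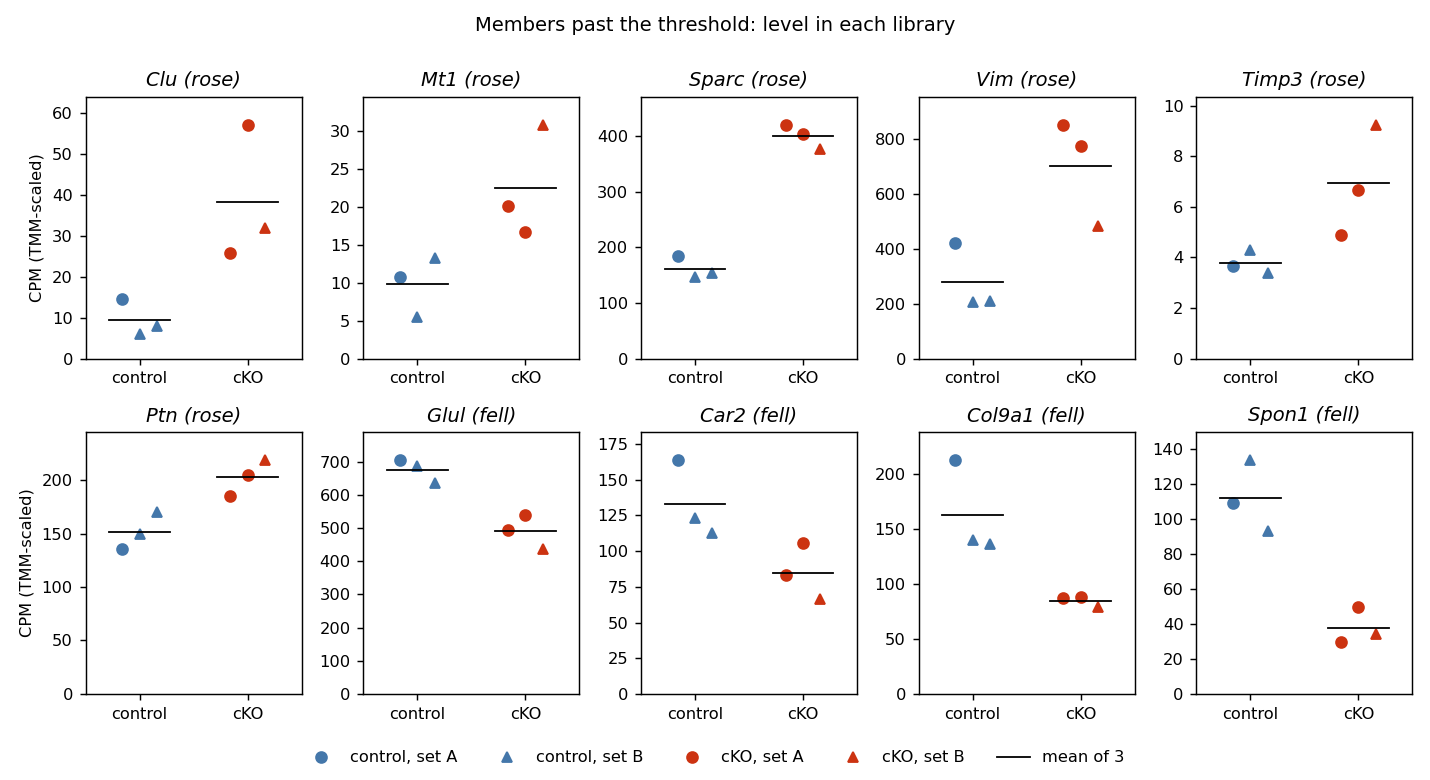
Level of the 10 members past the threshold in each library (y axis, CPM scaled by TMM, from 0), with set A as circles, set B as triangles and the mean of 3 libraries as a line. In each panel the cKO points lie on one side of the control points.

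The intermediate filament genes parted. Vim, which encodes vimentin and is read in progenitors, glia and many non-neural cells, was at 422, 206 and 210 CPM in the controls and 853, 774 and 485 CPM in the cKO libraries. Set A libraries were the higher ones in both genotypes, and every cKO library exceeded every control. Vim rose by 1.08 on the log2 scale (adjusted p = 0.000370, SE 0.09), its value within set A being 0.95 and within set B 1.22. Nes, which encodes nestin, a filament of neural progenitors, was at 139, 170 and 186 CPM in the controls and 151, 165 and 168 CPM in the cKO libraries. Its groups overlapped throughout, with a value of 0.05 (adjusted p = 0.796, SE 0.09).

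Among genes of lipid transport and chaperones, Clu was the only one that passed. Clu encodes clusterin, a secreted chaperone, and was at 14.5, 5.98 and 8.01 CPM in the controls and 25.8, 57.2 and 31.8 CPM in the cKO libraries. The mean was 9.51 ± 4.46 CPM over the controls and 38.3 ± 16.7 CPM over the cKO libraries (SD, n = 3). All cKO libraries lay above all controls, and Clu rose by 1.84 (adjusted p = 0.00630, SE 0.30). Without cKO 3 the value was 1.54 (adjusted p = 0.103) and with sex as a further term 2.29 (adjusted p = 0.0823). Apoe, the apolipoprotein that carries lipids from glia, was at 109, 50.6 and 66.5 CPM in the controls and 173, 126 and 76.8 CPM in the cKO libraries. Within each set it was higher in the cKO (0.42, adjusted p = 0.101, SE 0.15). Dbi, the acyl-CoA binding protein, had overlapping groups (-0.20, adjusted p = 0.289, SE 0.11).

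Secreted matrix and signalling genes moved in both directions, 3 of 9 rising (6.36% of all genes tested) and 2 falling (5.63%). Sparc, a matrix glycoprotein that binds collagen, was at 183, 147 and 154 CPM in the controls and 420, 404 and 377 CPM in the cKO libraries. The spread within each genotype was narrow, with a mean of 161 ± 19.4 CPM over the controls and of 400.5 ± 21.9 CPM over the cKO libraries (SD, n = 3), and Sparc rose by 1.25 on the log2 scale (adjusted p = 5.14e-05, SE 0.08). With genotype alone Sparc was at 1.31 (adjusted p = 0.0836).

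Ptn, pleiotrophin, a secreted heparin-binding growth factor, was at 136, 149 and 170 CPM in the controls and 185, 205 and 219 CPM in the cKO libraries. It rose by 0.49 (adjusted p = 0.00983, SE 0.09). Its adjusted p was 0.103 without control 2 (0.45), 0.0656 without control 3 (0.44), 0.0790 without cKO 3 (0.55) and 0.106 beside a term for sex (0.60). Timp3, an inhibitor of matrix metalloproteinases, was among the scarce members, at 3.65, 4.28 and 3.38 CPM in the controls and 4.89, 6.66 and 9.26 CPM in the cKO libraries. It rose by 0.97 (adjusted p = 0.0238, SE 0.22), and its adjusted p lay between 0.0568 and 0.312 without control 3, control 4, cKO 2 or cKO 3 and at 0.265 with sex; 21.3% of its exon length overlaps Syn3 on the other strand.

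Spon1 encodes F-spondin, an extracellular matrix protein first known from the floor plate, and had the largest fall among the called members. It was at 109, 134 and 92.9 CPM in the controls and 29.8, 49.5 and 34.3 CPM in the cKO libraries. Every control was well above every cKO library, and Spon1 fell by 1.59 on the log2 scale (adjusted p = 0.00282, SE 0.21), the value within set A being -1.46 and within set B -1.72. Col9a1, a chain of the fibril-associated collagen IX of the vitreous, was at 213, 140 and 136 CPM in the controls and 87.2, 88.4 and 78.8 CPM in the cKO libraries. The cKO values were close together at 84.8 ± 5.22 CPM (SD, n = 3), and Col9a1 fell by 1.05 (adjusted p = 0.000875, SE 0.11). With sex as a further term Col9a1 was at -0.97 (adjusted p = 0.0521), and Spon1 stayed past the threshold under every fit that kept library set, those without 1 library included.

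The other 4 genes of this group did not pass. Dkk3 followed the library set and not the genotype, at 1506 CPM in control 2 and 1243 and 1320 CPM in cKO 1 and 2 against 791 and 782 CPM in controls 3 and 4 and 866 CPM in cKO 3 (-0.05, adjusted p = 0.821, SE 0.10). Cst3, the protease inhibitor cystatin C, gave -0.02 (adjusted p = 0.928, SE 0.10) and Tgfb2, a growth factor of the TGF-beta family, -0.22 (adjusted p = 0.297, SE 0.12). Cyr61, a matricellular protein, was at 2.72 to 4.57 CPM in the controls and 4.70 to 5.98 CPM in the cKO libraries, with no overlap (0.47, adjusted p = 0.149, SE 0.19).

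Metallothioneins, small cysteine-rich proteins that bind zinc and copper, were higher in the cKO. Mt1 was at 10.7, 5.53 and 13.2 CPM in the controls and 20.1, 16.6 and 30.8 CPM in the cKO libraries. The groups did not overlap, and Mt1 rose by 1.25 (adjusted p = 0.0321, SE 0.31); the adjusted p was 0.376 without cKO 3 (0.81) and 0.0817 in DESeq2 (1.21). With sex as a further term Mt1 was at 2.36 (adjusted p = 0.0102). Of the exon length of Mt2, 73.5% overlaps Gm45774 on the other strand, a gene without a row in the counts. Mt2 was at 5.55, 0.508 (17 reads) and 2.62 CPM in the controls and 9.22, 7.51 and 9.05 CPM in the cKO libraries. Its cKO libraries also lay above all controls, but the controls differed widely among themselves and the value of 1.49 (SE 0.51) did not pass (adjusted p = 0.0982). Within set A Mt2 was at 0.59 and within set B at 2.55. It lay between 0.62 without cKO 3 (adjusted p = 0.661) and 2.55 without control 2, where it passed (adjusted p = 0.0450), and with sex it was at 3.85 (adjusted p = 0.0267).

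The 2 metallothionein genes are neighbours on chromosome 8 of GRCm38, Mt2 at 94172664 to 94173568 and Mt1 at 94179082 to 94180327, both on the plus strand and 5514 bp apart. Their promoters are shown because these are the paralogous members whose cKO libraries both lay above all controls, a choice made after their values were seen. The windows, from RefSeq on GRCm38.p6, hold 250 bases before and 50 bases from the transcription start; capitals mark matches on either strand to TGCACNC or TGCGCNC, the core letters of the metal response element, at chr8:94172368-94172667 for Mt2 and chr8:94178839-94179138 for Mt1.
Mt2: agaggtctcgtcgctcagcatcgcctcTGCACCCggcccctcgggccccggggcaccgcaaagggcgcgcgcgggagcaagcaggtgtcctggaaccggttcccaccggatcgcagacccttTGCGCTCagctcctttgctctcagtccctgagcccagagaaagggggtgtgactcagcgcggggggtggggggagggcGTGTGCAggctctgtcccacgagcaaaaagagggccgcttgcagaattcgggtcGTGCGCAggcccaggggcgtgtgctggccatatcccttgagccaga
Mt1: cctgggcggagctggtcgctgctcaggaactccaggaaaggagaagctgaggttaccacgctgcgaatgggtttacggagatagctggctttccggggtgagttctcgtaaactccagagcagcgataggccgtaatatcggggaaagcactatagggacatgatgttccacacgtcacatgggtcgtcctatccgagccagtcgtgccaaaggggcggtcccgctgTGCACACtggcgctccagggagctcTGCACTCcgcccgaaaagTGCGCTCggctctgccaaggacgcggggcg
Mt2 had 4 such matches and Mt1 had 3, whereas 25.7% of all 32851 windows of the table had at least 1 and 7.11% at least 2. Of the 25 members with a window, 8 had a match in at least 1 of their windows, and Trpm3 had 4 in 1 of its windows. The called members Clu, Spon1 and Car2 had no window, nor had Crym, Dkk3 and Prdx6. Members are counted over all their windows and the shares by single windows, so these are unlike measures. TAATTA, the core letters bound by LIM homeodomain proteins, stood in the windows of 2 of the 25 members, Slc1a3 and Abca8a, and in 5.3% of all windows; Slc1a3 did not pass the test between genotypes and Abca8a was not tested. A match is a description of these letters and not a measured binding site.

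Prdx6, a peroxiredoxin, was at 210, 77.6 and 69.4 CPM in the controls and 193, 184 and 52.3 CPM in the cKO libraries, so that set A stood above set B in both genotypes. Within each set the cKO libraries were lower (-0.32, adjusted p = 0.0768, SE 0.10). Membrane protein genes did not pass in any of 5 cases. Gpr37, an orphan receptor of glia, gave 0.24 (adjusted p = 0.179, SE 0.10), the tetraspanin Cd9 0.07 (adjusted p = 0.853, SE 0.17), Itm2b 0.00 (adjusted p = 0.990, SE 0.08) and the cation channel Trpm3 0.20 (adjusted p = 0.358, SE 0.13). Cav1, the caveolar coat protein, was at 1.85 to 3.36 CPM in the controls and 2.71 to 5.72 CPM in the cKO libraries, its value being -0.13 within set A and 1.43 within set B (0.63 over both, adjusted p = 0.270, SE 0.33). Ndrg2 gave 0.00 (adjusted p = 0.994, SE 0.11).

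Crym, which encodes a cytosolic binding protein of thyroid hormone, varied more between libraries than any other tested member. It was at 177, 6.58 and 49.9 CPM in the controls and 71.2, 80.3 and 2.48 CPM in the cKO libraries. Within each set the male control was the highest library, and the only female control (6.58 CPM) exceeded the female cKO of its set (2.48 CPM). The value was -2.07 (adjusted p = 0.108, SE 0.73), and with sex as a further term it was 0.04 (adjusted p = 0.990). Crym passed as a fall with the label number as a block (-1.22, adjusted p = 0.00140) and without control 4 (-1.28, adjusted p = 0.00139), and its value without 1 library ran from -3.50 to -1.20.

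**Figure D3:**
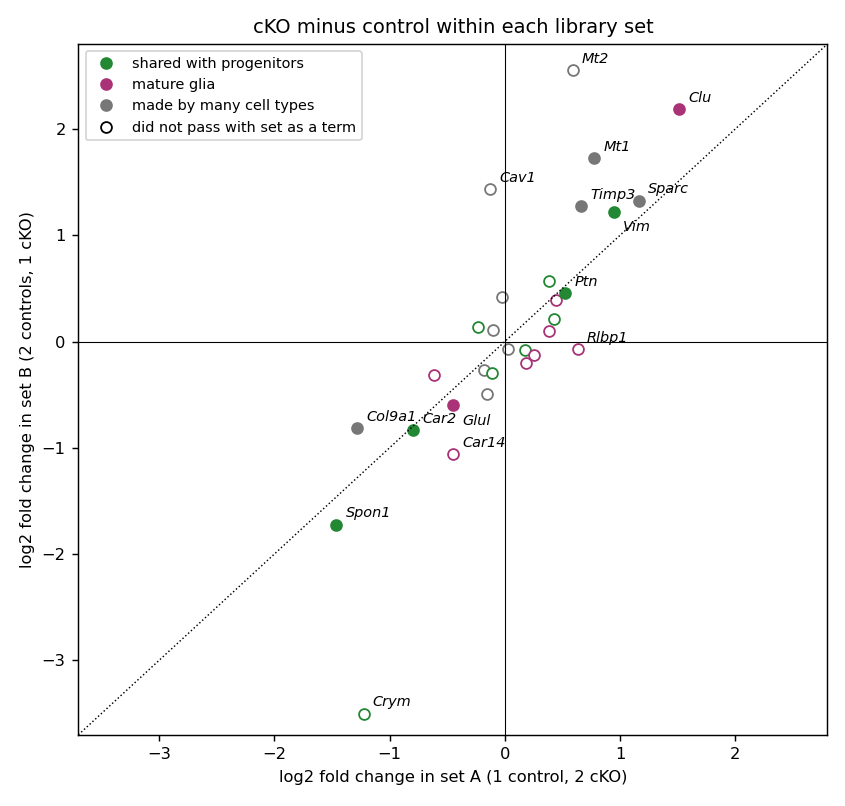
Log2 fold change (cKO minus control) of each tested member within set A (x axis) and within set B (y axis), with filled points for members past the threshold; the dotted line marks equal values. The 10 filled points lie in the lower left and upper right quadrants, and Crym, Mt2 and Cav1 are the points farthest from the line.

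All 10 called members had the same sign within both sets, which follows from their cKO libraries all lying on one side of the controls. Of the 30 tested members 9 had opposite signs, and all 9 were among those that did not pass. The interaction of genotype and library set passed for 0 of the 30 members in edgeR's quasi-likelihood test (0.0240% of all genes) and for 0 in DESeq2; 4 members had an unadjusted p under 0.05 in edgeR (4.22% of all genes), namely Rlbp1, Cav1, Col9a1 and Mt2. In the female pair of set B, control 3 and cKO 3, all 10 called members differed in the direction of their call. Their cKO libraries all lay on one side of the controls, so any such pair goes that way. The count of 10 therefore adds nothing to the calls. Spon1 stood at 134 CPM in control 3 and 34.3 CPM in cKO 3 and Vim at 206 and 485 CPM. This is 1 library against 1 and has no test.

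The difference between the library sets was also read member by member. With genotype in the model, 18 of the 30 tested members differed between the sets (63.7% of all genes tested), 13 being higher in set A (31.2% of all genes) and 5 in set B (32.5%). Crym had the largest difference (-3.53, set B minus set A, adjusted p = 0.00264), followed by Prdx6 (-1.68) and Cst3 (-1.39) among those higher in set A, and Trpm3 (1.41), Cd9 (1.28) and Tgfb2 (0.99) were higher in set B.

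Other genes of Müller glia and of glial fate, from a separate list of 27, are given beside the members. Of the 27, 9 fell (5.63% of all genes tested), 2 rose (6.36%) and 16 did not pass, with a median of -0.19. The falls were in Id1, Id2, Sox8, Zfp36l1, Zfp36l2, Hes1, Acsl3, Sox2 and Slc38a3. Id2, an inhibitor of bHLH factors, fell by 1.25 (SE 0.13), Sox8, a SoxE factor of glia, by 1.04 (SE 0.12), and Sox2, a stem cell and glial transcription factor, by 0.51 (SE 0.09). Sox9, the SoxE factor of progenitors and Müller glia, was at 46.5, 141 and 131 CPM in the controls and 38.5, 41.0 and 119 CPM in the cKO libraries and did not pass (-0.21, adjusted p = 0.139, SE 0.08). Mlc1, a membrane protein of astroglia, was at 4.37, 2.87 and 2.68 CPM in the controls and 30.8, 25.6 and 18.4 CPM in the cKO libraries. Mlc1 rose by 2.71 (adjusted p = 9.34e-06, SE 0.13) and was past the threshold with genotype alone as well (2.91, adjusted p = 0.0440). Aldoc, a glial aldolase, rose by 0.67 (SE 0.14).

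Progenitor genes were counted in the same fit. Of 20 listed progenitor genes 13 fell (5.63% of all genes tested), 1 rose (6.36%) and 6 did not pass, with a median of -0.65. The rise was in Sfrp2, at 106, 38.5 and 55.4 CPM in the controls and 473, 505 and 433 CPM in the cKO libraries (2.71, SE 0.22). Pax6 (-0.03) and Six3 (-0.06) were among those that did not pass. The falls include Lhx2 itself, the deleted gene, and Sox2 and Hes1, which also stand in the list of 27. The summed level of the 20 genes was 10348 to 11444 CPM in the controls and 5604 to 8333 CPM in the cKO libraries. Ccnd1 alone had a mean of 3619 CPM over the controls and 1885 CPM over the cKO libraries, so this sum rests in large part on 1 gene. The 10 members shared with progenitors had a median of 0.00 over the same libraries. Both are given as counts, and the difference between the lists was not tested.

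Markers of other cell types moved with genotype beside the members that rose. Over all genes tested 6.36% rose and 5.63% fell. Of the 20 listed lens genes 15 were tested and 14 rose; their summed level was 3.86 to 7.91 CPM in the controls and 891 to 2341 CPM in the cKO libraries, while the lens genes Lim2 and Lenep were at or near 0 in every library. Of 12 vessel genes 9 rose and 1 fell. The gene that fell was Kdr, which retinal progenitors also make, at 509 to 683 CPM in the controls and 240 to 424 CPM in the cKO libraries. With Kdr the vessel sum was 550 to 723 CPM in the controls and 303 to 594 CPM in the cKO libraries, and without it the sum was 40.5 to 41.9 CPM in the controls and 63.6 to 169.6 CPM in the cKO libraries. Pecam1, which defines endothelium, was at 1.75 to 2.32 CPM in the controls and 3.37 to 9.49 CPM in the cKO libraries, whereas Cldn5, a tight junction gene of endothelium, was at 8.58 to 16.4 and 9.87 to 13.1 CPM and did not pass (-0.13). Of 12 microglia genes 10 rose, with sums of 30.3 to 67.2 and 76.6 to 136 CPM. Members that rose can also be made by such cells, for example Sparc, Vim and Timp3 by vessel cells and Vim by lens cells. These examples are not a full list. The part of lens cells, vessel cells or microglia in the rise of any member was not tested.

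**Figure D4:**
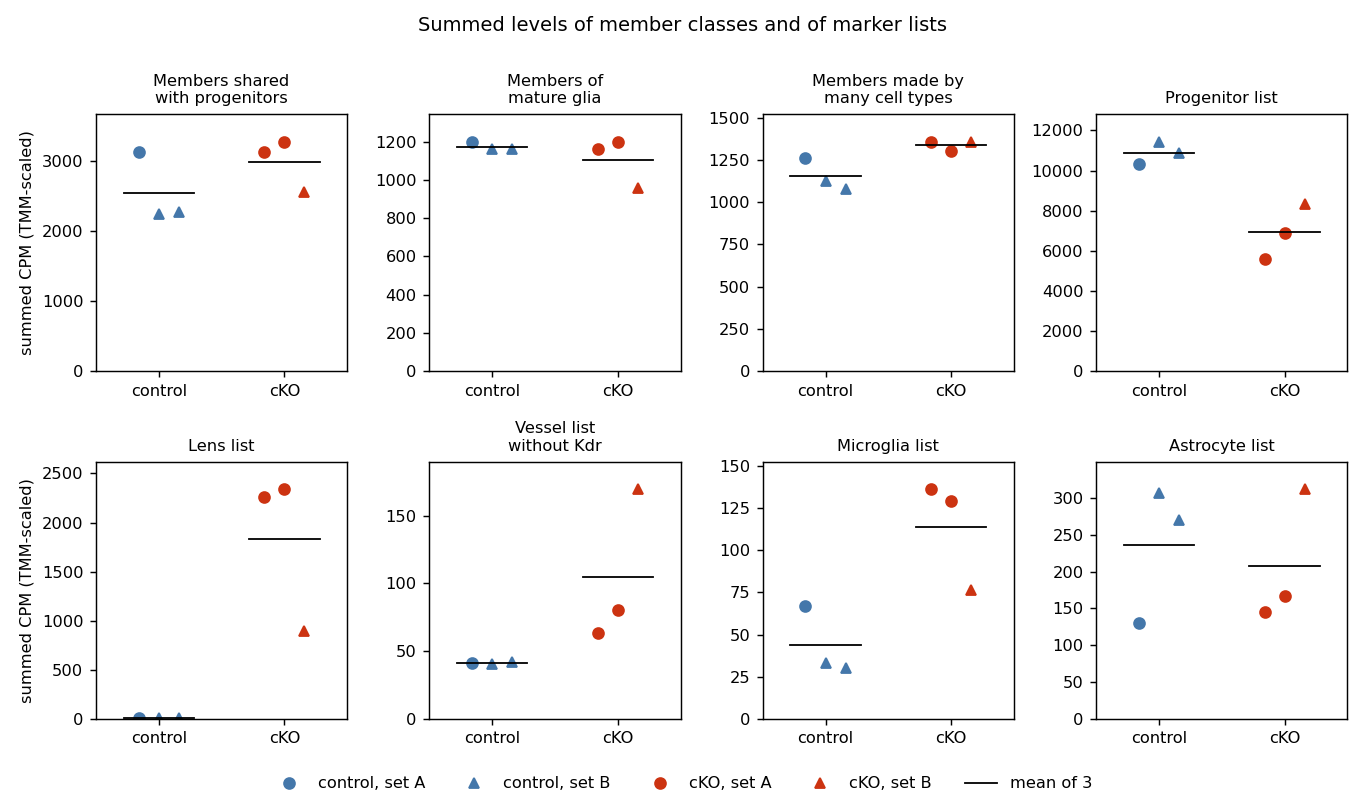
Summed CPM (y axes, from 0) of the 3 classes of members and of 5 marker lists in each library, with set A as circles, set B as triangles and the mean of 3 libraries as a line. Over the 6 libraries the sums of shared and mature glia members overlap between genotypes, whereas the progenitor list is lower and the lens list, the microglia list and the vessel list without Kdr are higher in every cKO library.

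Marker lists of astrocytes, pigment epithelium and mesenchyme gave fewer calls, beside 6.36% of all genes tested that rose. Of 9 tested astrocyte genes 1 rose (Aldh1l1) and 8 did not pass, with sums of 131 to 307 CPM in the controls and 145 to 312 CPM in the cKO libraries; Gfap was at 21.9 to 33.0 and 18.5 to 46.9 CPM, and Gjb6 was at or near 0. Of 9 tested pigment epithelium genes 1 rose (Oca2), sums were 7.35 to 15.8 and 13.6 to 31.1 CPM, and Rpe65 was at or near 0. The 8 tested mesenchyme genes did not pass, with log2 fold changes from -0.12 to 0.98 and sums of 112 to 127 and 121 to 147 CPM. Of 10 ciliary margin genes Cdo1, Zic1 and Zic2 rose, with sums of 191 to 227 CPM in the controls and 252 to 351 CPM in the cKO libraries. Of 4 tested blood genes Hba-a1 and Hbb-bt rose, and the sums of that list were 0.75 to 12.7 and 18.7 to 22.6 CPM. In both of these lists the sum was higher in every cKO library than in every control. Aqp4, the water channel of mature Müller glia and astrocytes, was at 0.235 to 2.28 CPM over the 6 libraries, so the labelled tissue held little transcript of that mature marker in either genotype.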

How the data were processed

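Retinal RNA of 6 newborn mice was sequenced, from RNeasy extracts and TruSeq libraries per the labels' protocols. Each deposited file holds raw read counts for every Ensembl gene, for which the submitters' processing notes name STAR, HTSeq and GRCm38; the labels state neither versions nor strand. A further 5 rows that name no gene took 26.4 to 28.8% of the deposited counts and were left out of library sizes and tests. Symbols, coordinates and exon lengths came from GENCODE vM21, which matched 37607 of 39179 rows (95.99%).

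All genes were fitted in edgeR 4.0.16 under R 4.3.3 (TMM scaling, filterByExpr by group, glmQLFit and glmQLFTest), with genotype and library set as terms and 3 residual degrees of freedom; p-values are 2-sided and adjusted by Benjamini-Hochberg over the 16691 genes tested, with a threshold of 0.05. CPM values are scaled by TMM. Values within a set come from the fit with an interaction of genotype and set. Each SE is the fold change over the root of F. Library set was read from the share of ambiguous counts, cut at 2.9%. Libraries of a group differed by more than counting noise (chi-square per degree of freedom of 23.0 or more), so none was treated as a second copy of another; this does not show that they are separate animals. The members, their classes and the marker lists were chosen with earlier results of these data known. All members are named; members past the threshold have their value in every library, and from the other lists genes past the threshold, defining markers and a few others are named. Alternatives were genotype alone, sex, the label number as a block, other scalings and filters, DESeq2 1.42.0, limma-voom (limma 3.58.1), other thresholds and leaving out each library.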

Additional observations from a re-analysis of the deposited data

How the results depend on the processing

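The count of rising members, 6 with library set as a term, was 0 with genotype alone, 9 without a filter and between 3 (without cKO 3) and 8 (without cKO 1) when 1 library was left out. The count of falling members, 4 with library set, was 0 with genotype alone, 1 with sex added, 8 without a filter, 7 in DESeq2 and between 3 and 5 without 1 library. All genes moved too: 1062 rose and 939 fell with library set, 36 and 0 with genotype alone, 173 and 63 with sex, 1471 and 1592 without a filter, 1170 and 1693 in DESeq2, and 176 to 1371 and 134 to 1336 without 1 library. Without a filter adjusted p fell as low as 1.91e-60 (Crym), so its calls are given as counts only. Adding sex kept the calls of Sparc, Vim, Mt1 and Spon1. No called member changed sign under any alternative run. With the replicate block, where the shared label number is a block, 6 members rose and 5 fell, Crym being the fifth fall, and all 10 calls were kept; the labels do not say that the numbers pair animals, and only 2 numbers are shared. Lhx2 was at -0.27 with genotype alone and -0.34 with sex, missed a threshold of 0.01 at -0.40, and lay between -0.54 (without cKO 3) and -0.22 (without control 2). Leaving aside the fit without a filter and a threshold of 0.10, members past the threshold only under an alternative were Crym with the block, Car14 with RLE, Car14, Kcnj10 and Prdx6 in DESeq2, Mt2 with sex, Mt2 and Cav1 without control 2, Crym without control 4, Slc1a3, Prdx6 and Trpm3 without cKO 1, Apoe without cKO 2 and Rlbp1 without cKO 3. The cause of these shifts was not tested.

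Members that changed sign had all missed the threshold with library set. With genotype alone they were Nes (-0.034), Dkk3 (0.16), Cst3 (0.43), Cd9 (-0.41), Itm2b (-0.039), Trpm3 (-0.15), Prdx6 (0.27) and Ndrg2 (0.13), and with sex Dkk3 (0.027), Crym (0.041) and Ndrg2 (0.032). Itm2b was at -0.0073 with the replicate block, -0.035 with RLE scaling, -0.041 in DESeq2, -0.00021 without mitochondrial genes and -0.025 without a filter. Without scaling Cst3 was at 0.016 and Ndrg2 at 0.034, and Ndrg2 was at 0.014 with a mean CPM of at least 1 and 0.013 in limma-voom. Leaving out 1 library moved Rlbp1 from -0.075 to 0.66, Nes from -0.082 to 0.21, Dkk3 from -0.21 to 0.14, Cst3 from -0.11 to 0.057, Cd9 from -0.12 to 0.28, Itm2b from -0.074 to 0.11, Cav1 from -0.10 to 1.43 and Ndrg2 from -0.20 to 0.22.

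Set A has 1 control and set B has 1 cKO, so each value within a set rests on that library. In set A genotype and sex cannot be told apart. Abca8a was too scarce to test, and Timp3, Cyr61, Cav1, Mt2 and Car14 had means below 10 CPM in both groups, where depth limits precision.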
